A study of Mus musculus with 24 samples.

Results

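The Fc gamma receptors of mouse neutrophils and their closest partners were followed through 6 culture conditions, as the genes Fcgr1, Fcgr2b, Fcgr3, Fcgr4, Fcer1g and Fcgrt. They were taken by gene symbol and not by a cut on a measured value, 6 of the 48709 genes in each file. Earlier results of these data were known when they were chosen. Neutrophils came from the bone marrow of C57Bl/6J mice, were enriched by density on Percoll and were cultured for 4 hours. The treatments were LPS with IFNγ (10 and 2 ng/mL, written LPS/IFNγ), IL4 at 20 ng/mL, insulin at 10 or at 100 ng/mL and IGF1 at 10 ng/mL, and the reference was untreated cells in the same medium. There were 4 libraries for each of the 6 groups. A library carries the number 6, 9, 10 or 11, once in every group, and libraries sharing a number are called a preparation here. Because nothing ties a number to a single mouse, p-values measure the spread between these libraries, which may in part be technical.

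Fc gamma receptors bind the constant part of IgG and so tell a phagocyte that a particle is coated with antibody. Fcgr1 (the high-affinity receptor, CD64), Fcgr3 (CD16) and Fcgr4 (CD16-2, which binds IgG2a and IgG2b) are the activating receptors of the mouse. They carry no signalling motif of their own and pair with the FcR γ-chain, the product of Fcer1g, whose phosphorylated tail recruits the kinase Syk. Fcgr2b (CD32B) is the inhibitory receptor and recruits the lipid phosphatase SHIP1, the product of Inpp5d. Fcgrt, the neonatal Fc receptor, pairs with β2-microglobulin and recycles IgG inside cells, so it belongs to neither class.

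On GRCm38, 4 of the 6 genes lie together on chromosome 1. These are Fcgr2b (chr1:170958617-170976547, minus strand), Fcgr4 (chr1:171018920-171029761, plus strand), Fcgr3 (chr1:171051174-171064935, minus strand) and Fcer1g (chr1:171229572-171234365, minus strand). Fcgr1 lies at chr3:96282909-96293969 and Fcgrt at chr7:45092990-45103851, both on the minus strand. The promoters of 3 receptors that moved and of Fcgr3, which was not called in any comparison, are shown because the windows differ in whether they hold a box for PU.1, a transcription factor of myeloid cells. They are RefSeq windows on GRCm38.p6, 250 bases before the start site to 50 after it, 5′ to 3′ on the strand of the gene. Capitals mark matches to GAGGAA (the PU.1 box), searched on both strands, so that a match on the other strand reads TTCCTC.
Fcgr1, chr3:96293920-96294219: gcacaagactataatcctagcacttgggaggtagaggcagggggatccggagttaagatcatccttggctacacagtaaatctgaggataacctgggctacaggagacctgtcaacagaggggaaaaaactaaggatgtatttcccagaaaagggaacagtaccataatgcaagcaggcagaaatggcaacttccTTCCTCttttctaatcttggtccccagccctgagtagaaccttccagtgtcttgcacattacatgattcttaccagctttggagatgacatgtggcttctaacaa
Fcgr4, chr1:171018676-171018975: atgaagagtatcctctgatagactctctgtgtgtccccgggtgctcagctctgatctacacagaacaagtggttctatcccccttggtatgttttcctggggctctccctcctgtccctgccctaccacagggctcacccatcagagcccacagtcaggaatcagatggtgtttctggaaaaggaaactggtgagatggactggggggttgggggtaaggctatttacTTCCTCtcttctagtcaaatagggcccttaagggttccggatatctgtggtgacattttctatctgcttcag
Fcgr2b, chr1:170976022-170976321: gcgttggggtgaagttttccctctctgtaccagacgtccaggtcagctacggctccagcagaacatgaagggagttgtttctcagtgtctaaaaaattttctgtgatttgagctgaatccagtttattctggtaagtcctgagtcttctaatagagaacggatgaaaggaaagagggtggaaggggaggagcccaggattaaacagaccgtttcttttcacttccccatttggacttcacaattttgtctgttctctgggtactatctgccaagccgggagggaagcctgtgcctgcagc
Fcgr3, chr1:171059354-171059653: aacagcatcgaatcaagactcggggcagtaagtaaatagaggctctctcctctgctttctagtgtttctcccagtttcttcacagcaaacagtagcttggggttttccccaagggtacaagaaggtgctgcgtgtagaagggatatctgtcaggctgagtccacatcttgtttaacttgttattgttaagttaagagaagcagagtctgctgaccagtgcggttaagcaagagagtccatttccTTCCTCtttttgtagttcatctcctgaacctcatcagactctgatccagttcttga
A PU.1 box stood in the windows of Fcgr1, Fcgr3 and Fcgr4, 55, 6 and 22 bases before the start site, and in 28.3% of all 32851 promoter windows. The windows of Fcgr2b, Fcer1g and Fcgrt held no match. Fcgr3 has a second listed start site 9 bases away, and the first is shown. The windows of Fcgr2b and Fcgr3 lie inside the gene intervals given above, so their RefSeq start sites are not the 5′ ends of those intervals. A match is a description of letters in this window and shows no binding.

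The deposited values are RPKM, reads scaled to gene length and to library depth, and all comparisons between genes below are on this per-length scale. Libraries held 18748634 to 30925209 mapped reads (median 23305916). In untreated cells Fcgr3 (359 ± 25.1 RPKM) and Fcer1g (352 ± 17.0 RPKM) were the most abundant members and overlapped each other (SD, n = 4). Fcgr3 ranked 85 and Fcer1g 90 among 18296 genes above 0 by mean level. Fcgr4 (49.5 ± 5.62 RPKM) and then Fcgr2b (18.6 ± 0.808 RPKM) followed without overlap, while Fcgrt (0.381 ± 0.129 RPKM) and Fcgr1 (0.0532 ± 0.0399 RPKM) lay near the limit of detection. The annotated exons of Fcgr2b, Fcgr3 and Fcgr4 span 5790, 1736 and 1256 bases. Orders, shares and ratios between genes depend on these lengths. In reads, the untreated libraries together held 10458 of Fcgr2b and 5998 of Fcgr4. Under LPS/IFNγ the order was Fcgr4, then Fcgr3 and Fcer1g, which overlapped, then Fcgr2b, Fcgr1 and Fcgrt, with no other neighbours overlapping. In bulk RNA, a change in the number of cells of a type and a change in RNA per cell cannot be told apart.

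**Figure D1:**
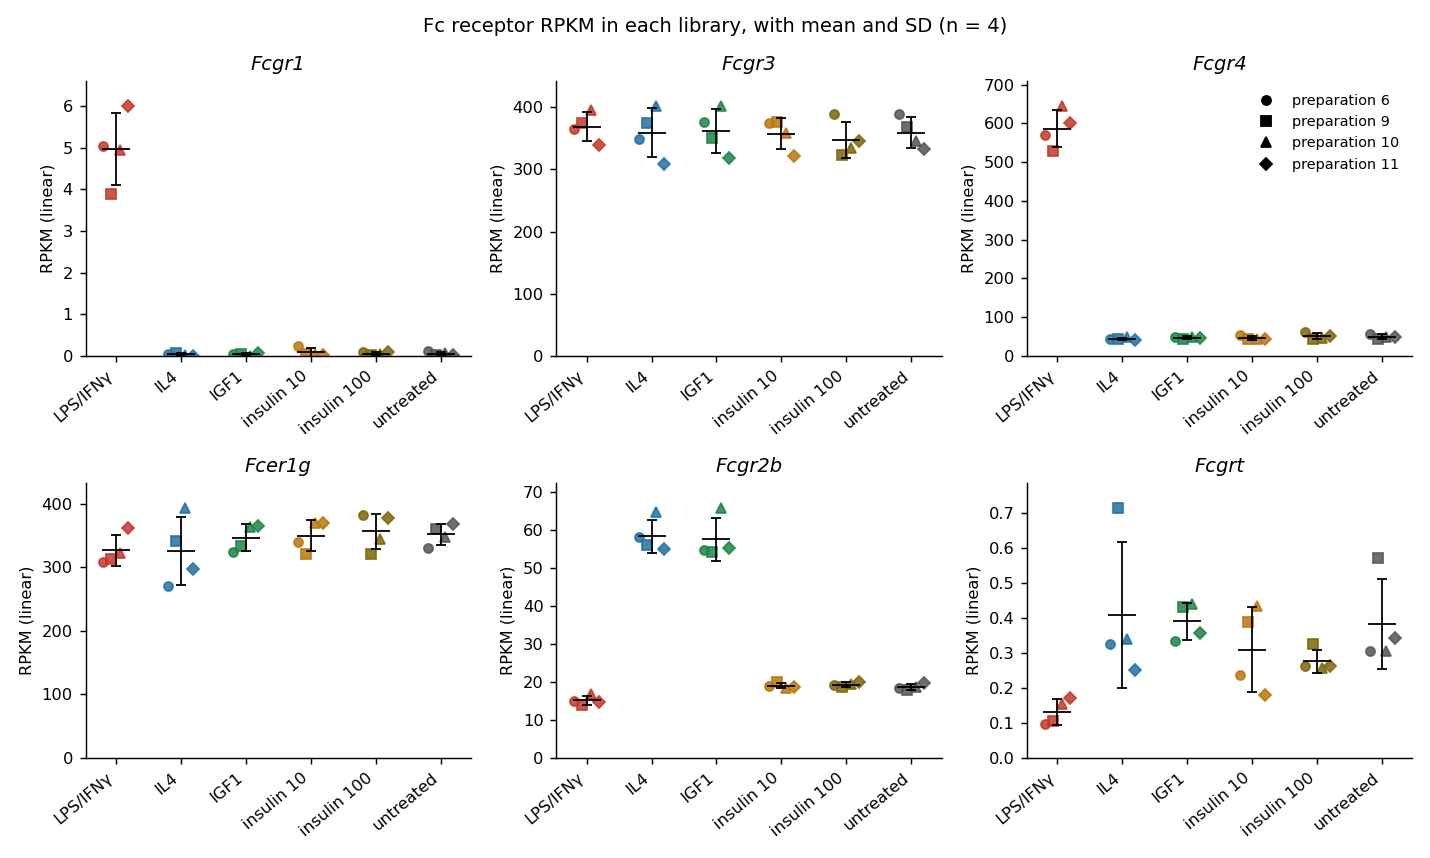
RPKM (linear axes from 0) of the 6 genes in every library by group, with symbols for the preparation and bars for mean and SD of 4 libraries. Fcgr1 and Fcgr4 stood apart in the 4 LPS/IFNγ libraries, Fcgr2b in the IL4 and IGF1 libraries, and Fcgr3 and Fcer1g overlapped in all groups.

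Genes were tested with limma on log2(RPKM + 0.1) for all genes reaching 0.1 RPKM in 4 or more of the 8 libraries. A gene was called when its p, adjusted over all genes tested by Benjamini-Hochberg, was under 0.05 and it changed 1.5-fold or more. On this scale the fold of a low gene is understated. Under LPS/IFNγ, 3 of 6 members were called against untreated cells, 2 higher (Fcgr1 and Fcgr4) and 1 lower (Fcgrt). Of all 13062 genes tested 25.9% were called, 8.15% higher and 17.8% lower. The median log2 fold change of all genes was -0.22, and 0.01 after median-of-ratios scaling, with which 56.1% of the called genes were higher in place of 31.4%. Changes under LPS/IFNγ are to be read against this shift.

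Fcgr4 rose most in absolute terms. It had 571, 529, 645 and 602 RPKM in the LPS/IFNγ libraries of preparations 6, 9, 10 and 11, against 57.4, 44.3, 47.4 and 48.7 RPKM in untreated libraries. The lowest treated library was thus far above the highest untreated one, and within preparations the ratio ran between 9.93 and 13.6. The log2 fold change was 3.57 (SE 0.09, limma adjusted p = 3.02e-09), an 11.9-fold rise of the mean, and 105 of 13062 genes rose further. Fcgr4 thereby passed Fcgr3, at 1.59 ± 0.149 times its level under LPS/IFNγ and 0.138 ± 0.0125 times in untreated cells (SD, n = 4 each).

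Fcgr1 was nearly silent outside LPS/IFNγ. It had 5.06, 3.90, 4.94 and 6.01 RPKM in the LPS/IFNγ libraries (328, 232, 240 and 481 reads), against 0.106, 0.0290, 0.0617 and 0.0164 RPKM in untreated libraries (6, 2, 4 and 1 reads). The other 16 libraries had 0 to 15 reads. Per mapped read the level was 97.9 times that of untreated cells, with a 95% interval of 57.1 to 184 that covers counting error only (1281 reads against 13). The log2 fold change was 5.07 (SE 0.21, limma adjusted p = 8.64e-08) and depended on the pseudocount, at 2.49 with 1 and 6.51 with 0.01. Against untreated cells 4 LPS/IFNγ libraries and 1 untreated library reached 0.1 RPKM, so Fcgr1 passed the filter on low values mainly through the group where it was high, which favours a call. It passed the filter in no comparison without LPS/IFNγ libraries.

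Fcgr3 was not called. It had 366, 374, 396 and 339 RPKM in LPS/IFNγ libraries, against 389.8, 368, 346 and 333 RPKM in untreated libraries, and the groups overlapped. The log2 fold change was 0.04 with a 95% interval of -0.11 to 0.19 (limma adjusted p = 0.676), so a change of 1.5-fold lay outside the interval. With median-of-ratios scaling the value for Fcgr3 was 0.3 (limma adjusted p = 0.01), still under 1.5-fold. For the shared signalling chain Fcer1g the values were 308, 314, 323 and 362 RPKM in LPS/IFNγ libraries, against 330.5, 361, 348 and 369 RPKM in untreated libraries, which also overlapped. Its log2 fold change was -0.11 (interval -0.26 to 0.04, limma adjusted p = 0.204), and 0.15 with median-of-ratios scaling (limma adjusted p = 0.104). The summed RPKM of Fcgr1, Fcgr3 and Fcgr4 was 2.95 ± 0.265 times that of Fcer1g under LPS/IFNγ and 1.17 ± 0.135 times in untreated cells (SD, n = 4 each).

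The inhibitory receptor Fcgr2b lay slightly lower under LPS/IFNγ but was not called. It had 14.9, 13.9, 16.8 and 14.7 RPKM, against 18.3, 17.8, 18.6 and 19.7 RPKM in untreated libraries, with no overlap. Its log2 fold change of -0.31 (SE 0.07, limma adjusted p = 0.00482) stayed under 1.5-fold and close to the median of all genes. After median-of-ratios scaling, which removes that median shift, it was -0.04 (limma adjusted p = 0.716). Fcgrt, the IgG-recycling receptor, had 0.0949, 0.103, 0.152 and 0.169 RPKM, against 0.304, 0.572, 0.304 and 0.343 RPKM in untreated libraries. Although the groups did not overlap, these values rest on 5 to 11 reads a library under LPS/IFNγ and 14 to 32 in untreated cells. The log2 fold change of Fcgrt was -1.04 (SE 0.22, limma adjusted p = 0.00346), and per mapped read the level was 0.34 times that of untreated cells (interval 0.211 to 0.532, counting error only). With a pseudocount of 1 the value was -0.29, under the fold threshold, and with a filter at 1 RPKM the gene was not tested.

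**Figure D2:**
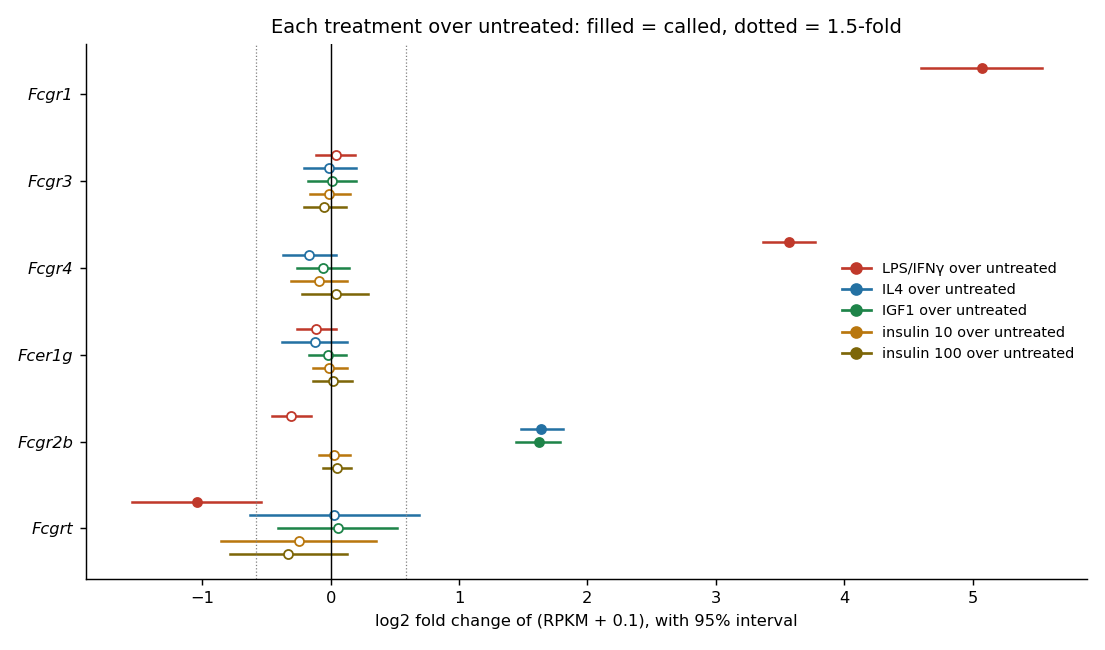
Log2 fold change of RPKM + 0.1 (x axis) of each gene for each treatment over untreated, with 95% intervals from limma; filled points were called and dotted lines mark 1.5-fold. Only Fcgr1, Fcgr4 and Fcgrt under LPS/IFNγ and Fcgr2b under IL4 and IGF1 were called, and Fcgr1 was tested under LPS/IFNγ alone.

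IL4 and IGF1 moved a single member, the inhibitory receptor. Of the 5 members tested after IL4, 1 was called higher (Fcgr2b), against 1.62% of 13097 genes, and of the 5 tested after IGF1 the same gene was called higher, against 1.57% of 13093 genes. Both comparisons share the untreated libraries. Fcgr2b had 58.0, 56.0, 64.6 and 54.9 RPKM after IL4 in preparations 6, 9, 10 and 11, against the 17.8 to 19.7 RPKM of untreated libraries. After IGF1 it had 54.6, 54.3, 65.9 and 55.2 RPKM, where preparation 10 lay apart. Every IL4 and IGF1 library exceeded every untreated library. The log2 fold change was 1.64 (SE 0.07, limma adjusted p = 8.83e-06) after IL4 and 1.62 (SE 0.08, limma adjusted p = 2.98e-05) after IGF1. Within preparations the ratio to untreated cells was 2.78 to 3.48 for IL4 and 2.80 to 3.54 for IGF1, with preparation 10 highest in both. With preparation 10 left out, the call held in both comparisons.

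None of the activating receptors or their chain was called. Fcgr4 had 43.02, 44.1, 47.5 and 40.99 RPKM after IL4 and 49.4, 43.4, 49.5 and 46.4 RPKM after IGF1, which overlapped the untreated range of 44.3 to 57.4 RPKM. The log2 fold change of Fcgr4 was -0.17 (interval -0.37 to 0.04, limma adjusted p = 0.618) after IL4 and -0.06 (interval -0.26 to 0.14, limma adjusted p = 0.84) after IGF1. Fcgr3 averaged 359 ± 39.5 RPKM after IL4 and 362 ± 35.6 RPKM after IGF1, and Fcer1g 326 ± 54.0 RPKM and 347 ± 21.4 RPKM (SD, n = 4 each), all overlapping untreated cells. Fcgr1 had 8 reads in all 4 IL4 libraries together and 8 in the IGF1 libraries, against 13 in the untreated ones. Fcgrt, with 75 reads after IL4 and 72 after IGF1 against 79, was not called in either.

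Between IGF1 and IL4 none of the 5 members tested was called, and 0.0% of 13080 genes were called (limma, 125 genes at an unadjusted p under 0.05, none of them a member; limma voom also called 0). For Fcgr2b the log2 fold change of IGF1 over IL4 was -0.02, with an interval of -0.23 to 0.18, or 0.853-fold to 1.13-fold. For Fcgr4 it was 0.10 (interval -0.07 to 0.28).

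With insulin, a close relative of IGF1, Fcgr2b had 18.4 to 20.0 RPKM at 10 ng/mL and 18.6 to 19.9 RPKM at 100 ng/mL. Untreated cells had 17.8 to 19.7 RPKM. The 3 ranges overlapped. No member was called at either dose against untreated cells or between the doses, and 0.0% of the 13055, 13108 and 13112 genes tested were called. At an unadjusted p under 0.05 limma counted 174, 321 and 565 genes in these comparisons, none of them a member, and limma voom on recovered reads called 0 genes in each. At 100 ng/mL the interval for the log2 fold change of Fcgr2b was -0.06 to 0.16. Set against insulin directly, IGF1 raised Fcgr2b by 1.59 on the log2 scale over 10 ng/mL (SE 0.08, limma adjusted p = 4.34e-05) and by 1.57 over 100 ng/mL (SE 0.08, limma adjusted p = 3.32e-05). It was the only member called of 5 tested in each, where 1.38% of 13059 and 1.46% of 13124 genes were called higher. Fcgrt did not overlap between IGF1 (0.333 to 0.439 RPKM) and insulin at 100 ng/mL (0.256 to 0.325 RPKM), but failed the correction (log2 fold change 0.38, limma adjusted p = 0.406).

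Between the opposing stimuli LPS/IFNγ and IL4, 4 of 6 members were called, 2 higher and 2 lower, where 27.2% of 13082 genes were called, 7.66% higher and 19.5% lower. With median-of-ratios scaling 57.2% of the called genes were higher in place of 28.2%, and the same 4 members were called in the same directions. Fcgr4 (3.74, SE 0.08, limma adjusted p = 2.44e-09) and Fcgr1 (5.25, SE 0.21, limma adjusted p = 1.11e-07) were higher under LPS/IFNγ on the log2 scale. No IL4 library exceeded 0.0773 RPKM of Fcgr1. It thus passed the filter on low values only through the LPS/IFNγ libraries, which favours a call. Fcgr2b (-1.95, SE 0.09, limma adjusted p = 2.36e-07) and Fcgrt (-1.08, SE 0.28, limma adjusted p = 0.0114) were lower. For Fcgr2b this difference combined 13.9 to 16.8 RPKM under LPS/IFNγ with 54.9 to 64.6 RPKM under IL4, beside 17.8 to 19.7 RPKM in untreated cells. Fcgr3 and Fcer1g again overlapped, with log2 fold changes of 0.04 and 0.01. With median-of-ratios scaling these were 0.36 and 0.33 (limma adjusted p = 0.00805 and 0.0205), and neither was called.

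Activating and inhibitory receptors were weighed as the summed RPKM of Fcgr1, Fcgr3 and Fcgr4 over that of Fcgr2b in each library, given without a test because the members were chosen. The ratio was 63.4, 65.4, 62.2 and 64.3 under LPS/IFNγ in preparations 6, 9, 10 and 11. It was 6.75, 7.49, 6.96 and 6.38 after IL4 and 7.80, 7.24, 6.85 and 6.61 after IGF1. Untreated libraries had 24.5, 23.1, 21.2 and 19.3, insulin at 10 ng/mL 22.7, 21.0, 21.9 and 19.7, and insulin at 100 ng/mL 23.6, 19.8, 19.6 and 20.1. The 6 groups thus fell on 3 levels that did not overlap: LPS/IFNγ above, IL4 and IGF1 below, and both insulin doses with untreated cells between them. The ratio was 2.91 times that of untreated cells under LPS/IFNγ, 0.314 times after IL4 and 0.324 times after IGF1 (means of the log2 ratio), and all 4 preparations showed these directions. LPS/IFNγ stood 9.27-fold above IL4, with 8.73 to 10.1 within preparations.

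The 2 ends of this range were reached through different genes. Under LPS/IFNγ the summed RPKM of the 4 IgG-binding receptors was 976 ± 60.9, against 427 ± 28.3 in untreated cells, and Fcgr4 made up 60.1 ± 2.12% of it, against 11.6 ± 0.916%. The share of Fcgr3 was 37.9 ± 2.21% under LPS/IFNγ and 84.04 ± 1.09% in untreated cells, although its level overlapped. After IL4 and IGF1 the summed RPKM was 461 ± 45.7 and 466 ± 41.7, and Fcgr2b made up 12.7 ± 0.739% and 12.3 ± 0.773%, against 4.38 ± 0.435% in untreated cells (SD, n = 4 each). Without Fcgr3, which held most of the sum, the log2 difference from untreated cells was 3.89 under LPS/IFNγ in place of 1.54, while after IL4 it was -1.82 in place of -1.67.

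**Figure D3:**
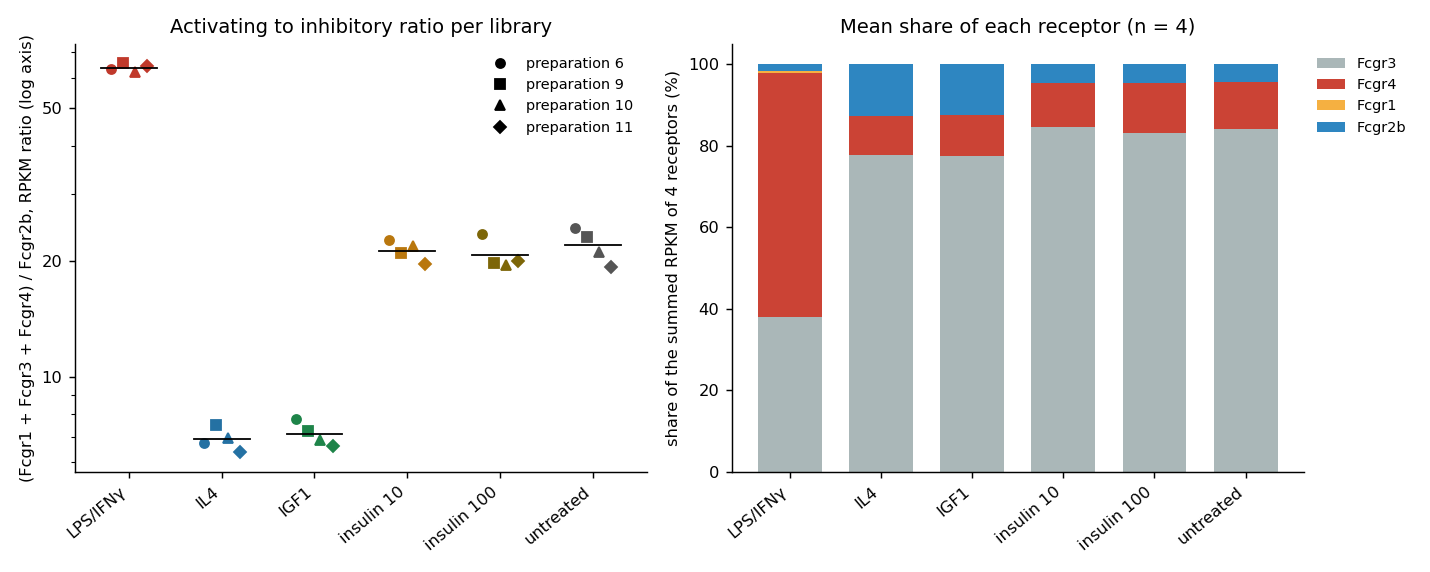
Left, the ratio of summed activating RPKM to Fcgr2b RPKM in each library (log axis), with group means as lines and symbols for the preparation; right, the mean share of each receptor in their summed RPKM (linear, from 0). LPS/IFNγ libraries sat between 62.2 and 65.4, IL4 and IGF1 libraries between 6.38 and 7.80, and all others between 19.3 and 24.5.

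Genes of the IgG receptor pathway were followed as a list of 45 in 3 groups: 21 on the activating side, 11 on the inhibitory side and 13 other Fc receptors and partners. Under LPS/IFNγ, 14 of 41 tested were called, 7 in each direction, beside the 25.9% of all genes. On the activating side 3 rose and 3 fell of 21, with a median log2 fold change of -0.12 beside -0.22 over all genes; with median-of-ratios scaling 5 rose and 3 fell. Gab2, a docking adaptor, rose (1.61, SE 0.06, limma adjusted p = 6.63e-08) with 28.2 ± 1.08 RPKM against 9.19 ± 0.617 RPKM in untreated cells. Lcp2, the adaptor SLP-76, rose as well (1.17, SE 0.07, limma adjusted p = 9.7e-07), whereas Pik3cg, a catalytic subunit of PI3-kinase, fell (-1.57, SE 0.07, limma adjusted p = 9.58e-08) and so did Card9, an adaptor downstream of Syk (-1.01, SE 0.06, limma adjusted p = 9.41e-07). Syk, named for its role and not called, had 79.2 ± 3.34 RPKM under LPS/IFNγ and 80.3 ± 3.25 RPKM in untreated cells (SD, n = 4 each).

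On the inhibitory side 1 of 11 rose and 4 fell under LPS/IFNγ, with a median of -0.45 beside -0.22 over all genes. The gene that rose was Ptprc, the phosphatase CD45 (0.74, SE 0.08, limma adjusted p = 4.04e-05). Its place on this side was a choice of the list, so its rise is not read as a rise of inhibition. Dok3, an adaptor that dampens signalling from immune receptors, fell (-1.16, SE 0.07, limma adjusted p = 7.22e-07) with 60.7 ± 4.32 RPKM against 135.8 ± 6.97 RPKM in untreated cells. Inpp5d, named after its values were seen because it encodes the phosphatase recruited by Fcgr2b, had 31.4 ± 3.33 RPKM against 50.3 ± 2.20 RPKM (SD, n = 4 each; -0.68, SE 0.08, limma adjusted p = 6.56e-05). The split on this side depended on the scaling. With median-of-ratios scaling 2 rose, Ptprc among them, and 2 fell, and Inpp5d was no longer called (-0.42). Of the other Fc receptors and partners 3 of 9 tested rose and 0 fell, beside 8.15% and 17.8% of all genes. Among these Trim21, a cytosolic receptor for antibody, rose by 3.39 on the log2 scale (SE 0.11, limma adjusted p = 2.02e-08) with 37.3 ± 1.34 RPKM against 3.51 ± 0.560 RPKM in untreated cells. Fcrl5, also called higher, had 0.453 ± 0.288 RPKM against 0.0258 ± 0.0173 RPKM in untreated cells (SD, n = 4 each). It passed the filter on low values only through the LPS/IFNγ libraries, which favours a call. B2m, the partner chain of Fcgrt, was named in this comparison for that role and had 3014 ± 461 RPKM against 876 ± 85.6 RPKM (SD, n = 4 each) and rose by 1.77 on the log2 scale (SE 0.12, limma adjusted p = 1.8e-06), so the pair moved in opposite directions. Against IL4 the list counted 8 higher and 10 lower of 41, beside 27.2% of all genes called, and with median-of-ratios scaling 12 higher and 6 lower. Cbl, a ubiquitin ligase, was among those lower with either scaling (-0.92, SE 0.08, limma adjusted p = 2.55e-05).

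After IL4 2 of 41 pathway genes tested were called, beside 1.66% of all genes, and after IGF1 2 of 40, beside 1.63% of all genes. Gab2 rose in both, by 0.88 after IL4 (SE 0.10, limma adjusted p = 0.00256) and by 0.85 after IGF1 (SE 0.11, limma adjusted p = 0.00425). Lcp2 was called after IGF1 (0.60, SE 0.09, limma adjusted p = 0.00836) but stayed under 1.5-fold after IL4 (0.57, limma adjusted p = 0.0105), and Fcrl1, an Fc receptor-like gene of B cells, was lower after IL4 (-1.04, SE 0.21, limma adjusted p = 0.0389). No gene of the inhibitory side was called, and Inpp5d had 54.0 ± 6.44 RPKM after IL4 and 53.5 ± 5.03 RPKM after IGF1. Without preparation 6, 0 genes of the list were called after IGF1, and without preparation 9, 10 or 11, 1 was called after either treatment. With preparation as a replicate block the count over all genes also rose, to 345 after IL4 and 356 after IGF1, from 218 and 213. In this fit 4 genes of the list were called in each. Those added were Fcer2a, the low-affinity IgE receptor CD23 (1.45 after IL4, limma adjusted p = 0.000203, and 1.5 after IGF1, limma adjusted p = 0.000386), and Fcmr, the receptor for IgM (-1.57 after IL4, limma adjusted p = 0.000194, and -1.59 after IGF1, limma adjusted p = 0.000875). Without the block neither Fcer2a nor Fcmr was called (limma adjusted p = 0.291 and 0.225 after IL4, 0.203 and 0.148 after IGF1). Both are known from B cells, and the summed RPKM of 10 B lineage markers was 127 to 294 after IL4, 129 to 283 after IGF1 and 110 to 274 in untreated cells. Against insulin, IGF1 raised Gab2 and Lcp2 at both doses. With the block 4 genes of the list were called against 10 ng/mL and 5 against 100 ng/mL. The counts over all genes were then 328 and 319, in place of 187 and 200. Without preparation 6 or 10, 0 were called against 10 ng/mL.

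**Figure D4:**
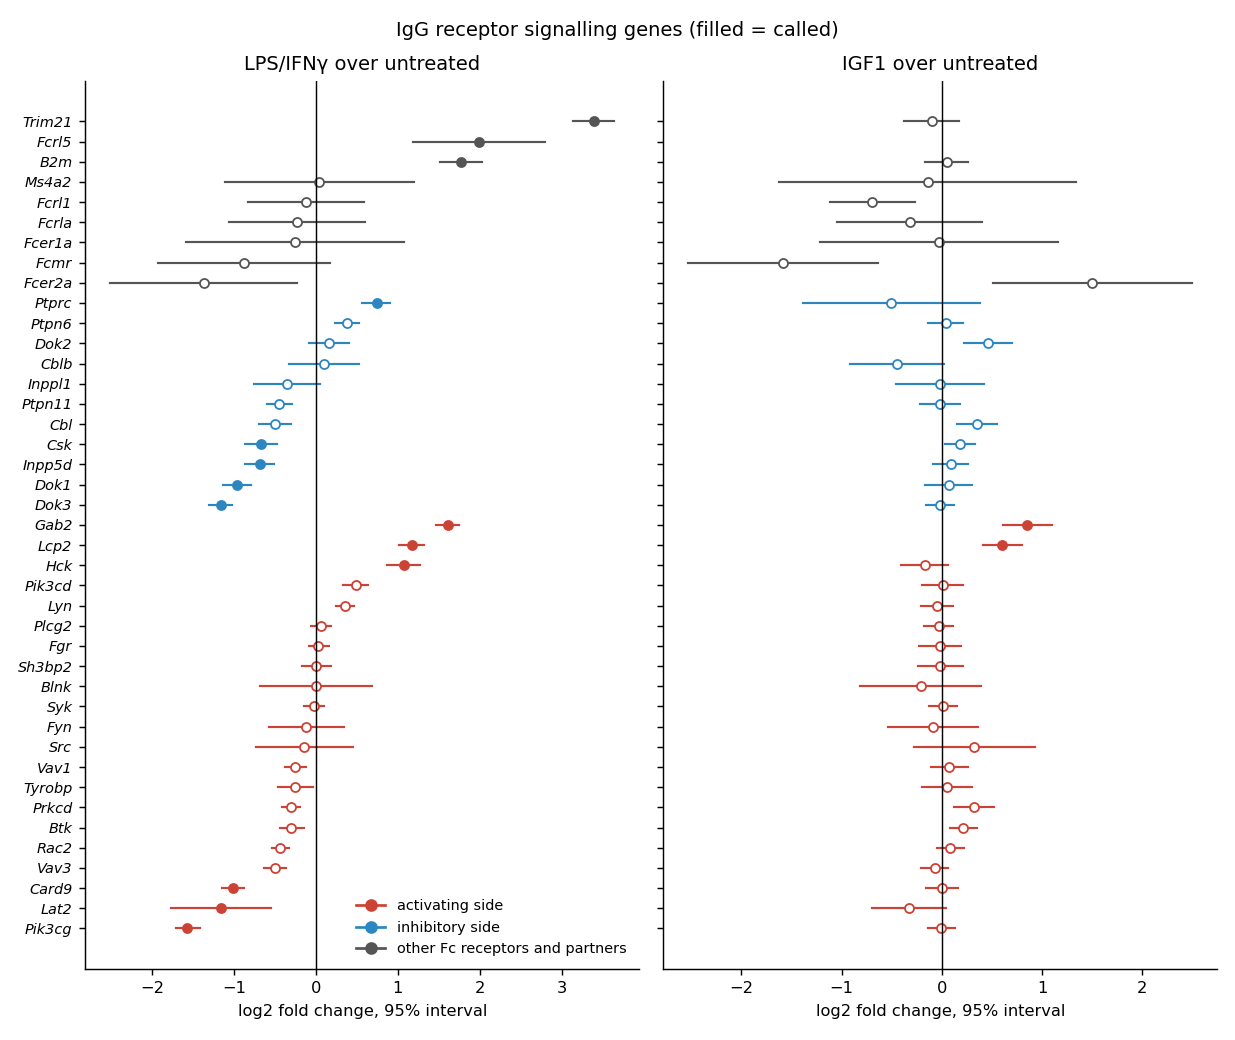
Log2 fold change (x axis) with 95% intervals for the pathway genes tested, under LPS/IFNγ (left) and IGF1 (right) over untreated cells; colours mark the 3 groups of the list and filled points were called. LPS/IFNγ moved 14 genes in both directions, while Gab2 and Lcp2 were the genes called after IGF1.

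The genes around the chromosome 1 receptors were examined from 250000 bases before Fcgr2b to 250000 bases after Fcer1g, a window chosen after the members' values were seen. Fcgr2b, Fcgr4 and Fcgr3 lie within 106319 bases. Under LPS/IFNγ Fcgr4 rose between Fcgr2b, 42373 bases away, and Fcgr3, 21413 bases away, neither of which was called. Of 20 other genes tested, 5 rose and 1 fell, beside 8.15% higher and 17.8% lower of all genes. Of those that rose, 4 (Nectin4, Usf1, Tstd1 and F11r) lay beyond Fcer1g. After IGF1, 2 of 21 others were called, beside 1.63% of all genes, and both lay next to Fcgr2b. Gm38204, antisense and overlapping the start of Fcgr2b, had 0.332 RPKM against 0.0152 RPKM in untreated cells (1.86, SE 0.32, limma adjusted p = 0.0186), and Gm10522, a long noncoding gene upstream of it, had 0.404 RPKM against 0.0167 RPKM (2.09, SE 0.24, limma adjusted p = 0.0024). Both genes passed the filter on low values only through the IGF1 libraries, since no untreated library reached 0.1 RPKM, which favours a call, and the same holds after IL4. After IL4, 1 of 21 others was called, beside 1.66% of all genes. This was Gm10522 (1.57, limma adjusted p = 0.02), while Gm38204 was not called (1.48, limma adjusted p = 0.0697). Whether reads were assigned by strand is not stated, so reads of Gm38204 and of Fcgr2b may not be separable. No 150-base window of the 6 genes' transcripts occurs unchanged in another gene; shorter trimmed reads and reads with mismatches were not examined.

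**Figure D5:**
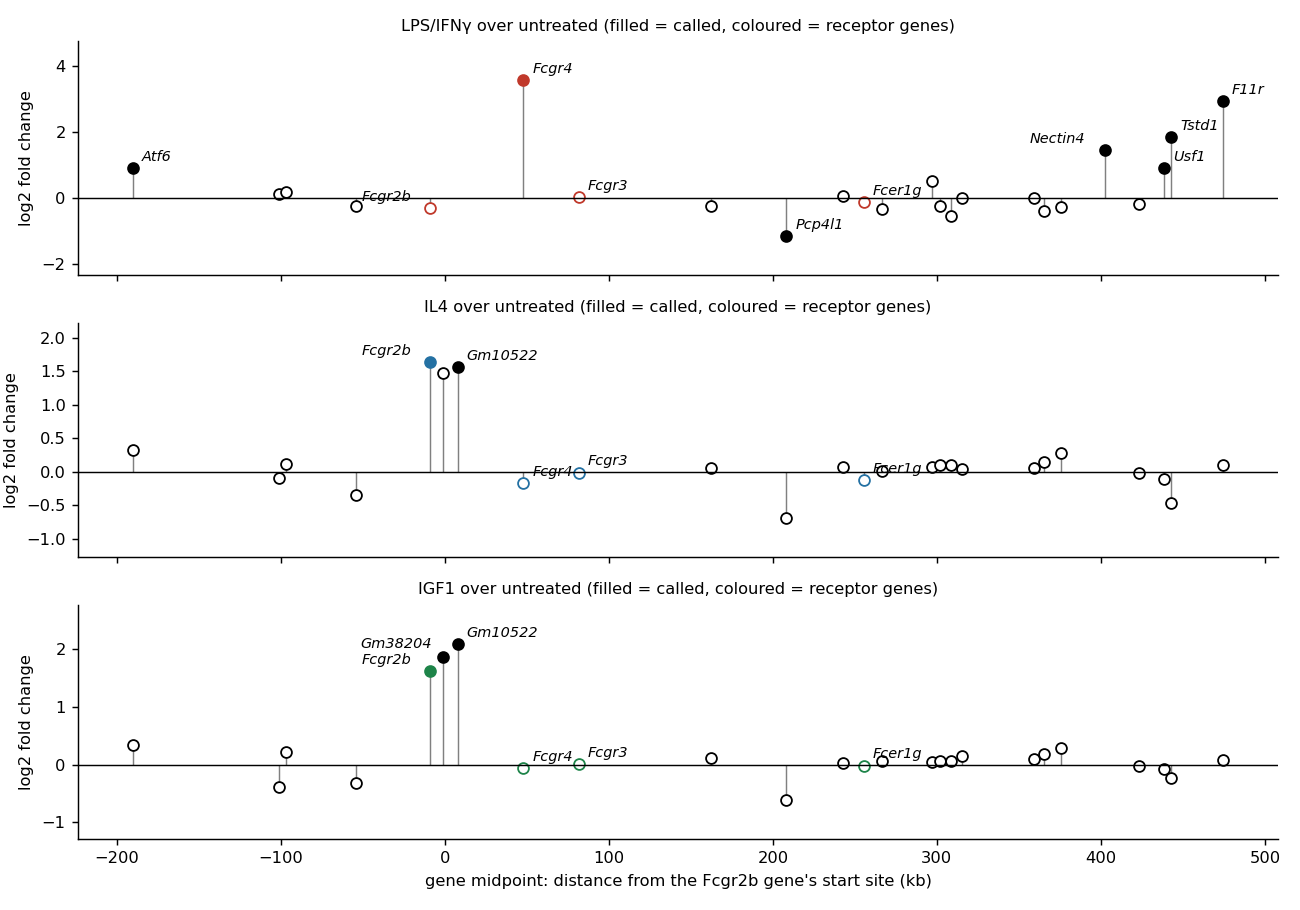
Log2 fold change (y axis) of each gene tested around the chromosome 1 receptors, for LPS/IFNγ, IL4 and IGF1 over untreated cells. The x axis is the distance of the gene's midpoint from the 5′ end of the annotated Fcgr2b interval (kb). Coloured points are receptor genes and filled points were called. Fcgr4 alone of the 4 receptor genes rose under LPS/IFNγ (3.57), and Fcgr2b and Gm10522 were called after both IL4 and IGF1, Gm38204 after IGF1 alone.

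Genes with the most similar profiles were sought by Pearson's r of log2(RPKM + 0.1) over 24 libraries among 9765 genes averaging 1 RPKM or more in some group. These r values are descriptions, since libraries share treatments and preparations and the groups far from the others set them. For Fcgr4 they were H2-T23, a non-classical MHC gene (0.997), Samhd1, a nucleotide hydrolase induced by interferon (0.996), and Trafd1 (0.995). For Fcgr1 they were H2-T23 (0.988), Il18bp, which neutralises IL18 (0.987), and Znfx1 (0.986). For Fcgr2b, Havcr2, the inhibitory receptor TIM-3, came first (0.990), with mean RPKM of 0.294 under LPS/IFNγ, 9.36 after IL4, 8.88 after IGF1 and 0.532 in untreated cells. It was followed by AA415398 (0.979) and 1810026J23Rik (0.978). Profiles near Fcgr3 (Npc2, 0.860, Tpt1, 0.845, and Prpf18, 0.844) and Fcer1g (Tyrobp, 0.784, Cfl1, 0.776, and Rgs3, 0.759) varied little between groups. Tyrobp encodes DAP12, another adaptor chain with the same kind of signalling motif. Those nearest to Fcgrt were Cct4 (0.881), Depdc5 (0.880) and Rragc (0.874).

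Markers of other cells that carry Fc receptors were read beside these results. The summed RPKM of 11 neutrophil markers was 89300 to 108000 under LPS/IFNγ and 105000 to 119000 in untreated cells, with Mmp9 and Retnlg called lower. Cxcr2 was the neutrophil marker called, higher, after IL4 and after IGF1. Monocyte and macrophage markers, of cells that express Fcgr1 and Fcgr4, summed to 254 to 362 under LPS/IFNγ and 228 to 296 in untreated cells. Of 10 tested 0 rose and 4 fell, beside 8.15% higher and 17.8% lower of all genes, with the values as deposited. B lineage markers, of cells that express Fcgr2b, summed to the ranges given above. After IL4 or IGF1 0 of 10 were called, beside 1.66% and 1.63% of all genes. T and NK markers, of which NK cells express Fcgr3, summed to 9.53 to 11.1 under LPS/IFNγ, 13.2 to 17.3 after IL4, 14.9 to 18.4 after IGF1 and 12.8 to 14.6 in untreated cells. Cd3d and Ncr1 were called lower under LPS/IFNγ, and Eomes and Gzma higher after IL4 and after IGF1. Eosinophil markers summed to more than those of monocytes and macrophages, at 1290 to 1860 under LPS/IFNγ and 1300 to 1530 in untreated cells. After IL4 they summed to 1090 to 1750 and after IGF1 to 1070 to 1610. Ccr3 was called lower under LPS/IFNγ. Basophil and mast cell markers and dendritic markers summed to less than monocyte and macrophage markers in every group. Of these, only the dendritic markers Clec9a and Flt3 were called, in opposite directions under LPS/IFNγ. No list had a marker at 0 in all libraries of a group. The part of these cells in the results was not tested.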

How the data were processed

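RNA of 24 libraries was made into stranded mRNA libraries and read as single 150-base reads. After bcl2fastq 2.17.1.4 (per the submitters' processing notes), the authors trimmed and mapped reads to GRCm38 in CLC Genomics Workbench and deposited RPKM values per gene. Whether counting used the strand is not stated in the sources read. The members and gene lists were chosen with earlier results of these data known. Positions and exon lengths came from GENCODE M21, and with them the RPKM of 14746 of 20269 genes (72.8%), all members included, gave whole reads within 0.001 reads or 1e-07 of the value. These recovered reads gave depth and an alternative test.

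Each comparison was fitted with limma 3.58.1 (R 4.3.3, statmod 1.5.0; trend and robust) on log2(RPKM + 0.1) over its 8 libraries, for genes with at least 0.1 RPKM in 4 of them, with Benjamini-Hochberg adjustment over all genes tested. The code was tested on simulated data. Named pathway genes were the called ones with the 6 smallest adjusted p per comparison. B2m, Fcrl5, Inpp5d, Ptprc and Syk, and Lcp2 after IL4, fell outside this rule in the comparison concerned and were named after their values were seen. Fcer2a and Fcmr fell outside it as well and were named from the fit with the replicate block. Libraries of the same number deviated together from their group means (60 pairs, r of 0.182 to 0.683, median 0.356; 180 other pairs, median -0.106), so the numbers, taken from the file headers, pair the samples. Each number also covers consecutive library names, so a batch of cells and one of libraries cannot be told apart. Intervals on reads are exact binomial ones and cover counting error only. Alternatives were other pseudocounts, filters, scaling, moderation, fold thresholds, 1 fit of 24 libraries, the block, voom and each library left out. Added after seeing the data were voom with the block, each preparation left out, and a filter of 3 libraries when a library was left out. Python 3.11.15 and scipy 1.17.1 were used for the rest. Protein features were not analysed here, and other promoter motifs are not reported here.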

Additional observations from a re-analysis of the deposited data

Results flagged for a closer look

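Within groups of 4 libraries, 42 sets (6 genes and the activating to inhibitory ratio in 6 groups) were examined for a library far from the rest, and 6 held one; chance gives about 1 in 20. Fcgr2b after IGF1 was 65.9 RPKM in preparation 10 and 54.3 to 55.2 RPKM in the others. Insulin at 10 ng/mL in preparation 6 had 54.0 RPKM of Fcgr4, against 43.3 to 44.6 in the other libraries of the group, and also 0.240 RPKM of Fcgr1 (15 reads), against 0.0182 to 0.0449. The ratio of activating to inhibitory receptors at 100 ng/mL insulin was 23.6 in preparation 6 and 19.6 to 20.1 in the others. Fcgrt was 0.325 RPKM in preparation 9 at 100 ng/mL insulin (16 reads), against 0.256 to 0.261, and 0.572 RPKM in preparation 9 of untreated cells (32 reads), against 0.304 to 0.343. Without that untreated library Fcgrt was still called lower under LPS/IFNγ.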

How the results depend on the processing

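None of the alternatives reversed a call. Fcgr2b after IL4 (1.59 to 1.70) and IGF1 (1.55 to 1.66) and Fcgr4 under LPS/IFNγ (3.50 to 3.83) were called under every alternative run, and the replicate block changed no call of a receptor gene. The count of receptor genes called under LPS/IFNγ against untreated cells was 2 with a pseudocount of 1 or a filter at 1 RPKM, where Fcgrt was lost, and 4 with no fold threshold, where Fcgr2b was added. Against IL4 it was 3 with the same 2 settings. It was also 3 when any LPS/IFNγ library was left out, since Fcgr1 then failed the filter of 4 libraries by construction; with a filter of 3 libraries, added after this was seen, all 4 were called. With median-of-ratios scaling the split of all genes called under LPS/IFNγ against untreated cells was 1536 higher and 1202 lower, in place of 1065 and 2322. The count over all genes, 3387, was 2183 with a pseudocount of 1, 6407 with no fold threshold and 1538 with a 2-fold threshold; against IL4, 3555 was 2307, 5877 and 1646 with these settings. After IL4 (218) and IGF1 (213) it was 345 and 356 with the block, and 143 and 139 with a 2-fold threshold. With voom it was 138 and 134. Voom tested only genes with recovered reads, so these counts are not over the same genes as 218 and 213. Single preparations left out gave as few as 92 and 96. For IGF1 against insulin at 10 ng/mL (187) it was 328 with the block, 121 with a 2-fold threshold and as few as 87 with a preparation left out. At 100 ng/mL (200) these were 319, 133 and 90, and 303 with 1 fit of 24 libraries. Comparisons with 0 genes called gave 0 to 8 genes, except 86 between the insulin doses without the 10 ng/mL library of preparation 11.

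The log2 difference in the activating to inhibitory ratio moved without Fcgr3 to 3.89 (LPS/IFNγ), -1.82 (IL4) and -1.69 (IGF1) against untreated cells and to 5.70 for LPS/IFNγ against IL4. As a mean of log2 values it was 3.20, -1.70 (IGF1) and 4.96 in the same order. Leaving out each library gave 1.48 to 1.59 (LPS/IFNγ) and -1.69 to -1.57 (IGF1).

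Counts of pathway genes called depended more on the setting. Under LPS/IFNγ against untreated cells the count was 14, but 9 with voom and 25 with no fold threshold. Voom was run only on genes with recovered reads, so a listed gene without them could not be called. The 9 and the 14 are therefore not counts over the same tested genes. Against IL4 the count was 18, but 10 with a 2-fold threshold. After IL4 it was 2, but 4 with the block or voom with the block, and 1 with no filter, limma without trend and robust, a 2-fold threshold or preparation 9, 10 or 11 left out. After IGF1 it was 2, but 4 with the block and 5 with voom and the block, 1 with median-of-ratios scaling or preparation 9, 10 or 11 left out, and 0 with a 2-fold threshold or preparation 6 left out. For IGF1 against insulin at 10 ng/mL it was 2, but 4 with the block, 5 with voom and the block, 1 without preparation 9 or 11, and 0 without preparation 6 or 10 or with a 2-fold threshold. At 100 ng/mL it was 2, but 5 with the block or voom with the block, 1 without preparation 6, 9 or 11, and 0 with a 2-fold threshold. The causes were not tested. Depth limits Fcgr1, with 0 to 15 reads a library outside LPS/IFNγ, and Fcgrt, with 5 to 32 reads in all groups.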
